A study of Mus musculus with 12 samples.

Results

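Transcripts of 8 genes that set or carry out programmed cell death were followed in the skin of 12 female mice: the BCL-2 family genes Bcl2, Bcl2l1, Mcl1, Bcl2l11, Bid and Bak1, the apoptosome gene Apaf1 and the caspase gene Casp8. They were taken by symbol from the 55453 genes counted, and each symbol matched 1 gene. All 8 were among the 18311 genes with enough counts to be tested, so none was lost to a filter on low counts. The mice were 8 to 12 weeks old on a C57BL/6 background, labelled either as wild type (WT) or as Thy1-knockout (KO), a line described as deficient in Thy-1 (CD90), a surface protein of fibroblasts and other cells. They received daily s.c. injections into 2 spots of the back skin for up to 14 days, either of bleomycin (BLM, 10 mg/kg per day), a DNA-damaging drug that induces skin fibrosis, or of PBS alone, and skin was taken on day 21. Each of the 4 groups (WT and KO, given PBS or BLM) held 3 mice, which are called here by their numbers, and the comparisons ask how apoptosis transcripts answered bleomycin with and without Thy-1.

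Apoptosis through mitochondria turns on the balance within the BCL-2 family. Anti-apoptotic members (BCL-2, BCL-XL and MCL-1) hold back the pore-forming effectors BAK and BAX, and the BH3-only proteins, such as BIM and BID, relieve that block or activate the effectors directly. Open mitochondria release cytochrome c, which assembles with APAF1 into the apoptosome and starts the caspase cascade, whereas death receptors such as FAS start it at the plasma membrane through caspase-8, which can cut BID and so join both routes. Many of these proteins are controlled after transcription, and a transcript level is not a measure of cell death.

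The median library held 31494965 counts, the smallest 26473700 and the largest 38890450. Thy1 itself lay at 104 to 150 CPM (counts scaled to a common library size) in WT PBS, 231 to 416 CPM in WT BLM, 45.6 to 96.9 CPM in KO PBS and 84.7 to 128 CPM in KO BLM. The KO mice were below the WT mice under each treatment but were not at 0, and counts per gene do not show which part of Thy1 they came from. Epidermal keratinocyte markers were present in every mouse, as the label of skin requires, with summed levels of 10119 to 47754 CPM. Genes of growing hair split the mice across the labels. Their mean log2 CPM was 9.72 to 10.3 in WT PBS, 10.3 in KO PBS mouse 136 and 9.21 in KO BLM mouse 141, 5.54 and 6.50 in the other KO BLM mice, and at most 3.88 in the remaining mice. For some genes, results in the KO mice are therefore also given without mouse 136, mouse 141 or both. In bulk skin, fewer cells of a type and less RNA per cell cannot be told apart. The labels name each mouse as a separate sample, and no batch was named.

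By level per length of merged exons, Mcl1 was the most abundant of the 8 transcripts, with a mean of 76.3 CPM per kb over the 12 mice. Bak1 (18.5 CPM per kb), Bcl2l1 (17.7 CPM per kb) and Casp8 (13.1 CPM per kb) followed. Bid (3.42 CPM per kb), Bcl2l11 (2.83 CPM per kb), Apaf1 (2.34 CPM per kb) and Bcl2 (2.02 CPM per kb) formed a low group. Between the neighbours Bak1 and Bcl2l1, the order depended on the group: Bcl2l1 was the higher on this scale in WT PBS (19.5 ± 0.99 against 17.1 ± 0.48 CPM per kb, mean ± SD, n = 3) and Bak1 the higher in WT BLM (23.0 ± 1.15 against 14.9 ± 2.44 CPM per kb). Over all 12 mice the CPM of a single gene spanned from 1.56-fold for Mcl1 to 2.51-fold for Apaf1, on the log2 scale 0.65 to 1.32, while the median range over all tested genes was 1.32.

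The genes lie on 6 chromosomes of GRCm38 in the GENCODE M21 annotation: Bcl2 at chr1:106538178-106714274, Casp8 at chr1:58795374-58847503, Bcl2l1 at chr2:152780668-152831728, Bcl2l11 at chr2:128126038-128162547, Mcl1 at chr3:95658788-95663176, Bid at chr6:120891930-120916853, Apaf1 at chr10:90989311-91082770 and Bak1 at chr17:27019810-27029009. Bak1 shares 614 exonic bases with Ggnbp1 on the other strand, which had 275 to 543 counts, and Bid shares 628 exonic bases with Bcl2l13 on the other strand, which had 3084 to 4697 counts. Whether the counting used strand was not given in the sources used here, so part of the Bid and Bak1 counts may belong to those neighbours.

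The 250 bases before the RefSeq start (GRCm38.p6) are shown for the 3 genes with the largest fold changes in WT skin, Bcl2l11, Casp8 and Apaf1, to show how far the promoters of the transcripts with the largest rises differ. All 8 genes matched, with 11 starts in all, and the first start is printed where a gene has more. Capitals mark matches, on either strand, to the GC box GGGCGG, the inverted or forward CCAAT box, or the letters GTAAACA bound by forkhead (FOXO) factors, and no match overlapped another in these 3 sequences.
Bcl2l11, chr2:128125788-128126037, plus strand: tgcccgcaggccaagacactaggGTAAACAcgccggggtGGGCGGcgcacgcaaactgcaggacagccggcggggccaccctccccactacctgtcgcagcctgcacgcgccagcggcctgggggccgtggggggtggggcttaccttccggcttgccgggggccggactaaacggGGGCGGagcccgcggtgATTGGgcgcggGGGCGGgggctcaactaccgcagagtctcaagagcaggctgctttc
Casp8, chr1:58802252-58802501, plus strand: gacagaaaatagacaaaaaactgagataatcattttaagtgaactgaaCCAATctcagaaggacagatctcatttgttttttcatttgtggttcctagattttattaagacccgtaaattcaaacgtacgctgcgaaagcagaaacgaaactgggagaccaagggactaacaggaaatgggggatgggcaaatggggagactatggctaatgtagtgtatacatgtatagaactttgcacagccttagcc
Apaf1, chr10:91082744-91082993, minus strand: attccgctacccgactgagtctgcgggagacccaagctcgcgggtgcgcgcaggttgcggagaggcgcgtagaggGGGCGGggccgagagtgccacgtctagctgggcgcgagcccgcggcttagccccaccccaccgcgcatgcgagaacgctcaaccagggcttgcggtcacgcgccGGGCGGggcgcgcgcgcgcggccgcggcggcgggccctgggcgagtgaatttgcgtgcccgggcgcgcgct

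The Bcl2l11 stretch held GC boxes that began 211, 74 and 46 bases before the start, a CCAAT box 57 bases before it and the forkhead letters 227 bases before it. Of the 32851 mouse promoters of this length, 32.7% hold GGGCGG, 33.9% hold CCAAT and 3.17% hold GTAAACA. The stretch before the other Bcl2l11 start (chr2:128127325-128127574, not printed) held 2 GC boxes and 2 CCAAT boxes but not the forkhead letters. Apaf1 held GC boxes that began 175 and 71 bases before its start, and Casp8 held 1 CCAAT box and no GC box. The Casp8 start used by RefSeq lies inside the gene as GENCODE draws it. Also searched on both strands were TATAAA (in 12.4% of promoters), TGACTCA (AP-1, 4.46%), CACGTG (E-box, 6.02%), TTTCGCGC (E2F, 0.256%), and the interferon element, NF-kB and p53 half-site patterns by name (2.98%, 7.25% and 7.13%). None of these was in the 3 stretches, and a match or its absence in this window says nothing about binding.

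Bleomycin against PBS in WT skin asks which apoptosis transcripts differ in fibrotic skin. Bcl2l11, Casp8, Apaf1, Mcl1 and Bak1 were higher after bleomycin, by 1.34-fold to 2.01-fold, and no member was lower past the threshold. In this comparison 34.0% of the tested genes passed an adjusted p of 0.05 (edgeR quasi-likelihood test, Benjamini-Hochberg), 19.8% in the higher direction. The 5 of 8 members called higher thus stand beside a background of about 1 gene in 5. The median log2 fold change of the 8 members was 0.53, against 0.018 over all tested genes. The groups did not overlap in 7 of 8 members, beside 57.0% of tested genes.

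**Figure D1:**
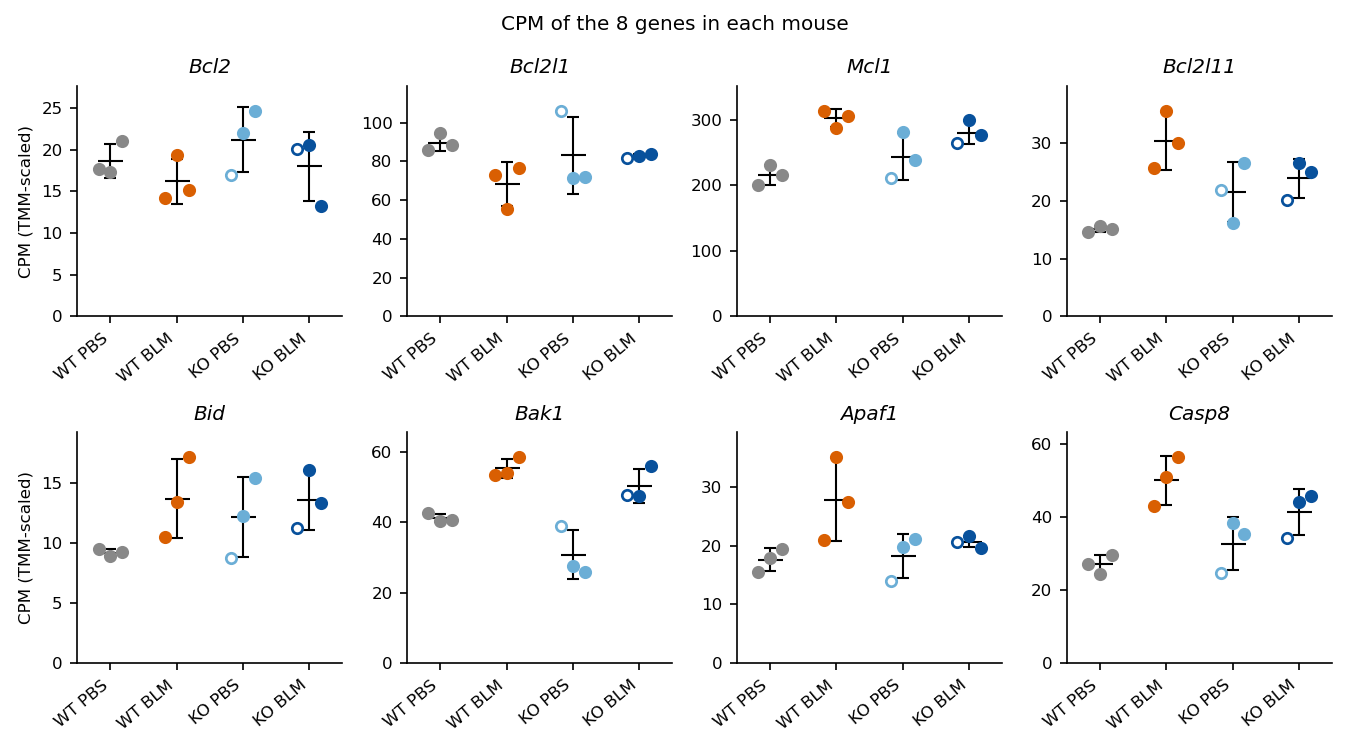
CPM (TMM-scaled, linear axes from 0) of the 8 genes in each of the 12 mice, with the group mean and SD as bars. Open circles are KO PBS mouse 136 and KO BLM mouse 141. For Bcl2l11, the WT BLM mice (25.6 to 35.6 CPM) all sit above the WT PBS mice (14.6 to 15.6 CPM).

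Of the BH3-only genes, Bcl2l11 encodes BIM, which binds every anti-apoptotic member of the family. Bcl2l11 stood at 14.6, 15.6 and 15.2 CPM in WT PBS mice 159, 160 and 161 and at 25.6, 35.6 and 30.1 CPM in WT BLM mice 145, 146 and 147. Every BLM mouse was above every PBS mouse, and the fold change was 2.01 (log2 1.01, SE 0.19, adjusted p = 0.00714). It was the only member that stayed past the threshold whichever of the 12 mice was left out, with adjusted p-values of 0.00273 to 0.0383. Bid encodes the BH3-only protein that caspase-8 cleaves into its active form. Bid was at 9.47, 8.92 and 9.22 CPM in WT PBS and 10.5, 13.4 and 17.2 CPM in WT BLM. The groups did not overlap, but the WT BLM mice were spread and the difference missed the threshold (log2 0.58, SE 0.24, adjusted p = 0.0823).

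Casp8 encodes the initiator caspase of the death receptor route. Casp8 was at 27.2, 24.4 and 29.5 CPM in WT PBS and 42.9, 50.9 and 56.4 CPM in WT BLM, a fold change of 1.85 (log2 0.89, SE 0.19, adjusted p = 0.00936). The groups were well apart, and of the fits that left out 1 mouse only that without WT PBS mouse 160 lost the call (adjusted p = 0.0512). Apaf1 encodes the scaffold on which caspase-9 is activated. Apaf1 was at 15.6, 17.9 and 19.4 CPM in WT PBS and 20.9, 35.1 and 27.4 CPM in WT BLM, a fold change of 1.58 (log2 0.66, SE 0.20, adjusted p = 0.0339). The lowest BLM mouse, 145, lay close to the highest PBS mouse, 161. The call remained in 7 of 12 fits that left out a mouse and was lost without WT BLM mouse 146 or 147 or any 1 WT PBS mouse (adjusted p up to 0.123).

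Bak1 encodes BAK, an effector that forms pores in the outer mitochondrial membrane. Bak1 was at 42.6, 40.5 and 40.7 CPM in WT PBS and 53.6, 53.9 and 58.6 CPM in WT BLM, a fold change of 1.34 (log2 0.42, SE 0.15, adjusted p = 0.0494). The mice of each group lay close together, yet the call was just inside the threshold and remained in 3 of 12 fits that left out a mouse.

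The anti-apoptotic genes did not move as 1 group. Mcl1, whose product is short-lived and holds BAK in check, was at 201, 232 and 215 CPM in WT PBS and 314, 287 and 307 CPM in WT BLM, a fold change of 1.401 (log2 0.49, SE 0.13, adjusted p = 0.0227). This call also remained in 7 of 12 such fits and was lost without WT BLM mouse 145 or 147 or any 1 WT PBS mouse (adjusted p up to 0.0941). Bcl2l1, which encodes BCL-XL, was at 85.9, 94.7 and 88.4 CPM in WT PBS and 73.1, 55.6 and 76.4 CPM in WT BLM. Its values ran opposite to those of Mcl1, with every BLM mouse below every PBS mouse, but the difference did not pass (log2 -0.39, SE 0.17, adjusted p = 0.0904). Bcl2, the founding member of the family, was at 17.7, 17.3 and 21.0 CPM in WT PBS and 14.3, 19.3 and 15.1 CPM in WT BLM. It was the only member whose WT groups overlapped (log2 -0.20, SE 0.21, adjusted p = 0.466).

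The number of members called ranged from 1, without WT PBS mouse 160 (13.9% of tested genes called), to 7, without KO PBS mouse 136 (45.7%). Without mouse 160 the 1 call was Bcl2l11, and without KO PBS mouse 136 Bid joined as higher and Bcl2l1 as lower (adjusted p = 0.0392 and 0.0202). Other libraries also moved the count by over 1.5 times: it was 2 without WT PBS mouse 159, WT PBS mouse 161 or WT BLM mouse 147, and 3 without WT BLM mouse 145 or 146. Without a filter on low counts, Mcl1, Apaf1 and Bak1 did not pass (adjusted p = 0.0872, 0.0705 and 0.134), and with RLE normalization Bak1 did not (adjusted p = 0.0507). Those fits called 15.5% and 34.6% of tested genes. Markers of other cells moved with the same contrast. All 8 leukocyte markers were higher in WT BLM, with a summed level of 787 to 1250 CPM against 142 to 248 CPM, as were 10 of 12 macrophage markers (2663 to 3888 CPM against 483 to 1096 CPM) and 9 of 10 skeletal muscle markers (17630 to 35679 CPM against 5125 to 5773 CPM), none of them at 0 in any mouse. Of 23 tested genes of growing hair, 13 were lower (108 to 900 CPM against 50734 to 73031 CPM), and Krt34 had 0 counts in 2 WT BLM mice, 1 of which also had none of Krt86. With the growing-hair level as a covariate 0 members were called in WT skin, beside 0.0874% of tested genes. Under that covariate the log2 fold change was smaller for Mcl1 (0.18, from 0.49), Casp8 (0.39, from 0.89) and Apaf1 (0.46, from 0.66), and was larger for Bak1 (0.76, from 0.42) and Bcl2l11 (1.15, adjusted p = 0.175). That level did not overlap between WT PBS and WT BLM, so in WT skin it and bleomycin cannot be told apart. The part of the other marker lists in these differences was not tested.

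**Figure D2:**
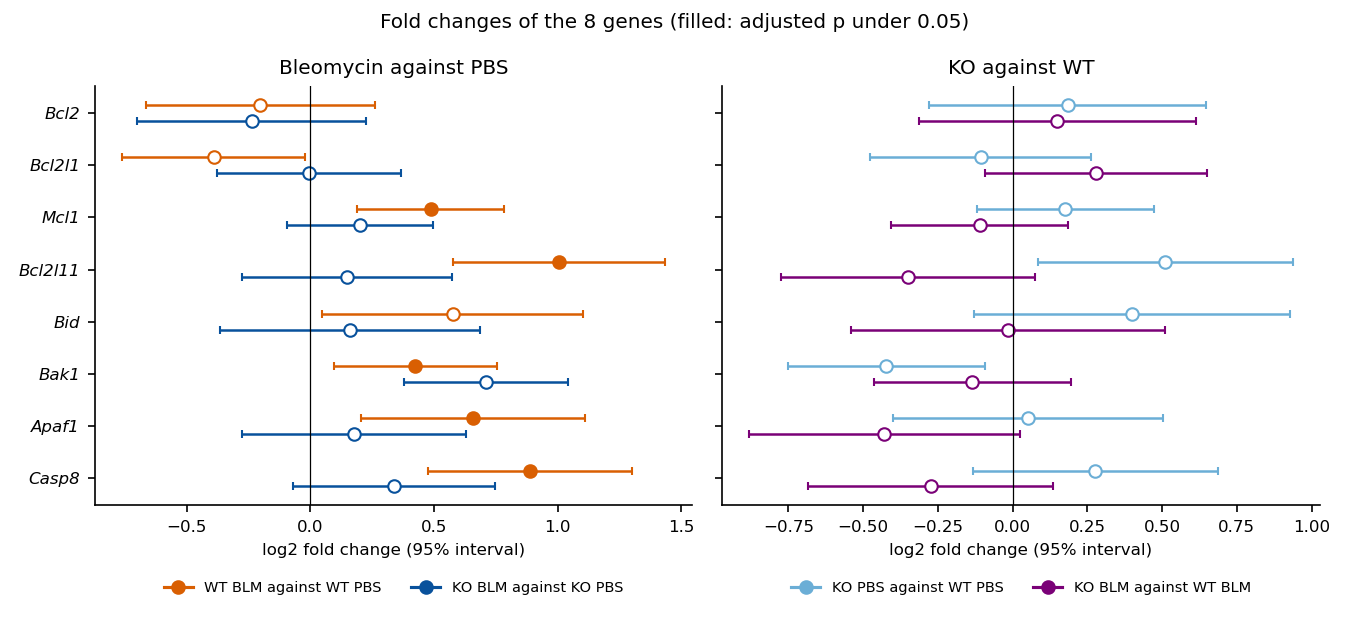
Log2 fold changes with 95% intervals for the 8 genes, bleomycin against PBS in each genotype (left) and KO against WT under each treatment (right), with filled points where the adjusted p was under 0.05. The 5 filled points are all in WT BLM against WT PBS, from Bak1 at 0.42 to Bcl2l11 at 1.01, and the KO point of Bak1 lies at 0.71 without passing.

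Bleomycin against PBS in KO skin asks the same without Thy-1. No member passed the threshold, in a comparison in which 0.306% of the tested genes did (edgeR). Only Bak1 had an unadjusted p under 0.05 and was without overlap, beside 20.0% and 19.3% of tested genes, and DESeq2 called 1 member, again Bak1, beside 5.95% of the genes it tested. The median log2 fold change of the 8 members was 0.17, against -0.007 over all tested genes.

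Bak1 was at 38.9, 27.6 and 26.0 CPM in KO PBS mice 136, 137 and 139 and at 47.7, 47.5 and 56.1 CPM in KO BLM mice 141, 143 and 144, a fold change of 1.64 (log2 0.71, SE 0.15, adjusted p = 0.0755). All BLM mice were above all PBS mice, and mouse 136 was the PBS mouse nearest to them. Without mouse 136 the log2 fold change of Bak1 was 0.91 (adjusted p = 0.00661), and without mice 136 and 141 together it was 0.95 (adjusted p = 0.00422), in fits that called 2632 of 18739 tested genes and 22.3% of 18688. Bak1 was also called with the growing-hair covariate (log2 0.62, adjusted p = 0.0206), beside 9.49% of tested genes.

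Bcl2l11, the member with the largest fold change in WT skin, was at 21.9, 16.2 and 26.6 CPM in KO PBS and 20.1, 26.5 and 25.0 CPM in KO BLM. The groups overlapped almost fully (log2 0.15, SE 0.19, 95% interval -0.28 to 0.57). Casp8 was at 24.5, 38.3 and 35.4 CPM in KO PBS and 34.3, 44.0 and 45.8 CPM in KO BLM (log2 0.34, SE 0.19, adjusted p = 0.326). Mouse 136 was the lowest of the PBS mice and mouse 141 the lowest of the BLM mice, and Casp8 passed only with the growing-hair covariate (log2 0.53, adjusted p = 0.0475).

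Bid was at 8.74, 12.3 and 15.4 CPM in KO PBS and 11.2, 16.1 and 13.3 CPM in KO BLM. Apaf1 was at 13.99, 19.7 and 21.1 CPM in KO PBS and 20.7, 21.6 and 19.7 CPM in KO BLM. Both overlapped, with mouse 136 again the lowest PBS mouse, and their log2 fold changes were 0.16 (SE 0.24) and 0.18 (SE 0.20).

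Among the anti-apoptotic genes, Mcl1 was at 211, 282 and 239 CPM in KO PBS and 265, 299 and 277 CPM in KO BLM (log2 0.20, SE 0.13). Bcl2l1 was at 106, 71.6 and 71.9 CPM in KO PBS and 81.8, 83.0 and 83.9 CPM in KO BLM. For Bcl2l1 the PBS mice lay on both sides of the BLM mice, mouse 136 above and mice 137 and 139 below. Its log2 fold change was -0.005 (SE 0.17) with all mice and 0.21 without mouse 136 (adjusted p = 0.289). Bcl2 was at 17.0, 22.0 and 24.7 CPM in KO PBS and 20.1, 20.6 and 13.3 CPM in KO BLM (log2 -0.24, SE 0.21), with overlapping groups.

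KO PBS against WT PBS asks what the absence of Thy-1 changes in skin without bleomycin. No member passed the threshold, in a comparison in which 0.0655% of the tested genes did. DESeq2 also called 0 members, beside 3.69% of the genes it tested. At an unadjusted p under 0.05 edgeR had 2 members, beside 20.4% of tested genes, and the same 2 did not overlap, beside 18.9%. Bcl2l11 was the higher in KO PBS, at 16.2 to 26.6 CPM against 14.6 to 15.6 CPM (log2 0.51, SE 0.19, adjusted p = 0.217). Bak1 was the lower, at 26.0 to 38.9 CPM against 40.5 to 42.6 CPM (log2 -0.42, SE 0.15, adjusted p = 0.209).

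Mouse 136 was the KO PBS mouse nearest to the WT PBS mean in Bak1, Casp8, Bid, Mcl1, Bcl2l1 and Bcl2. It lay within the WT PBS range only in Casp8 and Mcl1. In Bak1, Bid and Bcl2 it lay just below every WT PBS mouse. In Bcl2l1 it lay above every WT PBS mouse (106 against 85.9 to 94.7 CPM). In Bcl2l11 it lay between mice 137 and 139, and in Apaf1 it lay below every WT PBS mouse (13.99 against 15.6 to 19.4 CPM). Without mouse 136, Bak1 was lower in KO PBS (log2 -0.63, adjusted p = 0.00257) and Casp8 higher (log2 0.45, adjusted p = 0.0487), in a fit in which 36.7% of the tested genes passed. Without mice 136 and 141 together, Bid was also higher (log2 0.59, adjusted p = 0.0471), beside 40.9% of tested genes called. The summed level of growing-hair genes was 93.2 to 80471 CPM in KO PBS, with mouse 136 at the top. With the growing-hair level as a covariate 0 members were called, beside 0.0546% of tested genes. In KO PBS mouse 137, Krt33b, Krt34 and Krt81 had 0 counts. Mice 137 and 139, the KO PBS mice left without mouse 136, had growing-hair levels (mean log2 CPM) of -0.10 and 2.37. WT PBS mice had 9.72 to 10.3. In the fits without mouse 136, genotype and growing hair therefore cannot be told apart. The part of growing hair in these differences was not tested beyond the fits given here.

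**Figure D3:**
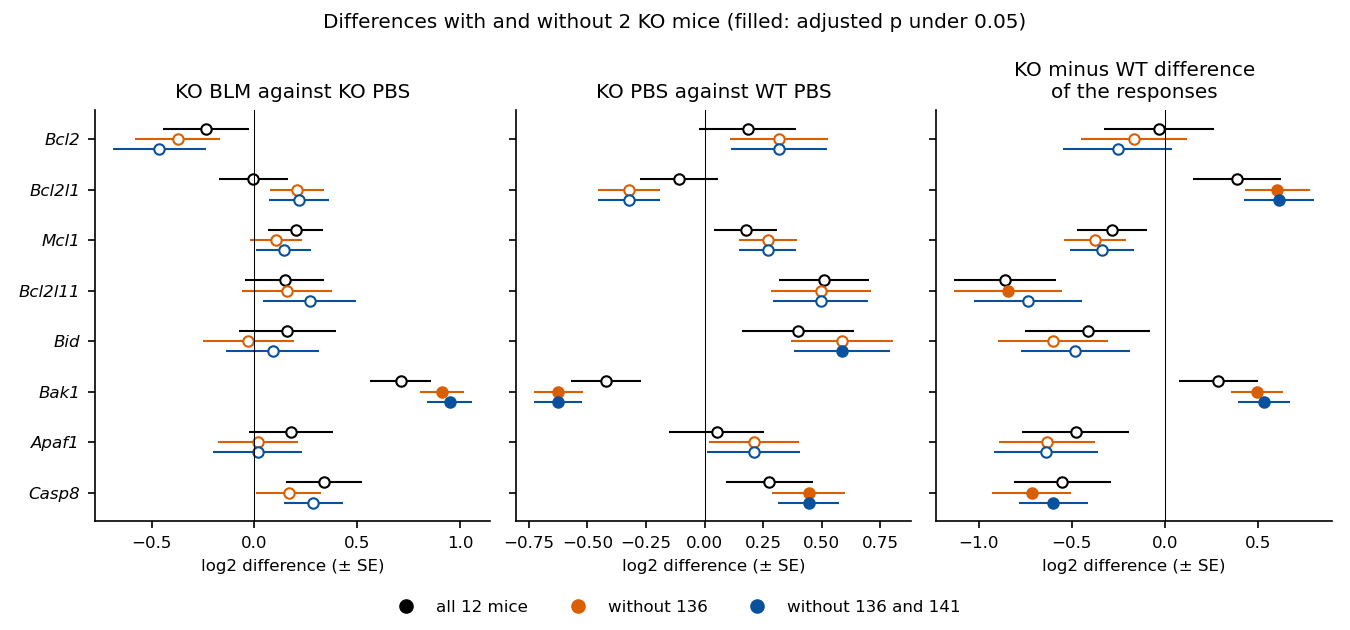
Log2 differences (± SE) of the 8 genes in 3 contrasts that involve KO PBS mice, with all 12 mice, without KO PBS mouse 136, and without KO PBS mouse 136 and KO BLM mouse 141. Filled points have an adjusted p under 0.05. With all mice no point is filled. Without mouse 136 Bak1 is filled in all 3 panels, at 0.91, -0.63 and 0.49.

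KO BLM against WT BLM asks how skin without Thy-1 differs after bleomycin. No member passed the threshold (0.0928% of the tested genes did), and 0 had an unadjusted p under 0.05, beside 16.6% of tested genes. DESeq2 called 0 members, beside 2.99% of the genes it tested. Bcl2l1 was the only member without overlap, beside 27.5% of tested genes, at 81.8 to 83.9 CPM in KO BLM against 55.6 to 76.4 CPM in WT BLM (log2 0.28, SE 0.17, 95% interval -0.092 to 0.65). Apaf1 was at 19.7 to 21.6 CPM in KO BLM against 20.9 to 35.1 CPM in WT BLM (log2 -0.43, SE 0.20, adjusted p = 0.316). The KO BLM mice lay within a narrow range of Apaf1 that reached only the lowest WT BLM mouse. For Bcl2l11 the values were 20.1 to 26.5 CPM against 25.6 to 35.6 CPM (log2 -0.35, SE 0.19). For Casp8 they were 34.3 to 45.8 CPM against 42.9 to 56.4 CPM (log2 -0.28, SE 0.18). The 95% intervals of the other 4 members (Bcl2, Mcl1, Bid and Bak1) reached from -0.54 to 0.61 on the log2 scale, so the data allow differences within those bounds. The growing-hair level (mean log2 CPM) was 5.54 to 9.21 in KO BLM and 0.34 to 3.88 in WT BLM. As these ranges did not overlap, genotype and growing hair cannot be told apart in this comparison.

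The difference between the KO and the WT response to bleomycin was tested directly as a contrast of contrasts. With all 12 mice no member passed, and neither did any of the tested genes (0.00%). At an unadjusted p under 0.05 there was 1 member, Bcl2l11, whose response was smaller in KO by 0.86 on the log2 scale (log2 -0.86, SE 0.27, adjusted p = 0.0883), beside 31.1% of tested genes. DESeq2 called 1 member, Bcl2l11, as lower, beside 17.8% of the genes it tested. Without mouse 136, 39.9% of the tested genes passed and there were 4 calls among the 8 members: Bcl2l11 (log2 -0.84, adjusted p = 0.0414) and Casp8 (log2 -0.72, adjusted p = 0.0228) responded less in KO, and Bcl2l1 (log2 0.60, adjusted p = 0.0222) and Bak1 (log2 0.49, adjusted p = 0.0193) had the more positive response in KO. Without mice 136 and 141 together there were 3 calls, for Bcl2l1, Bak1 and Casp8, beside 38.6% of tested genes, and Bcl2l11 was at -0.73 (adjusted p = 0.073). Without mouse 136 the growing-hair level was lower after bleomycin in WT (0.34 to 3.88 against 9.72 to 10.3). In KO it was higher (5.54 to 9.21 against -0.10 and 2.37). In the fits without mouse 136 these opposite shifts and a genotype difference in response cannot be told apart. With the growing-hair covariate no member passed (0.00% of tested genes did), and the log2 values were -0.14 for Bak1, 0.14 for Casp8 and 0.0049 for Bcl2l1, so that Bak1 and Casp8 turned, while Bcl2l11 was at -1.04 (adjusted p = 0.685).

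**Figure D4:**
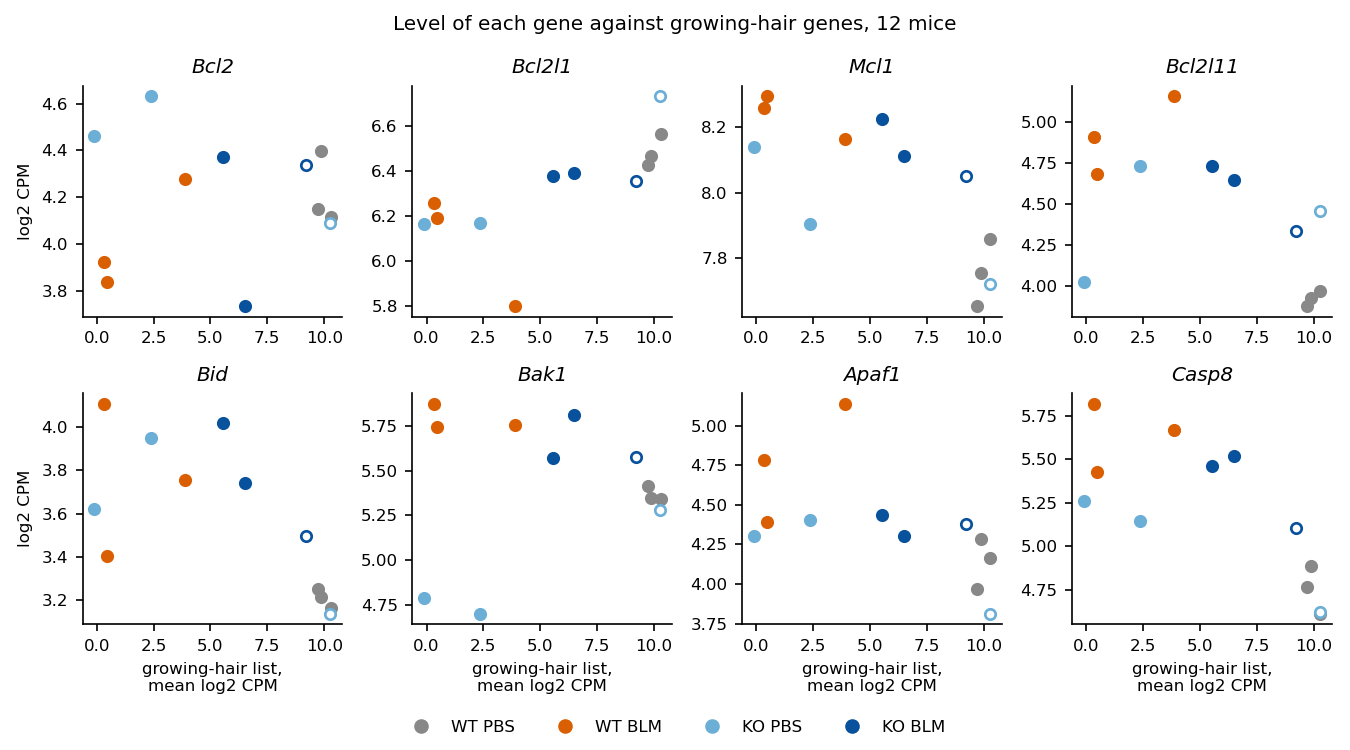
Log2 CPM of each of the 8 genes (vertical axes do not start at 0) against the mean log2 CPM of the growing-hair genes in the same mouse, for 12 mice coloured by group, with KO PBS mouse 136 and KO BLM mouse 141 as open circles. In Casp8 and Bid mouse 136 lies beside the WT PBS mice at the hair-rich end (10.3), whereas in Bcl2l11 it lies above them (21.9 CPM against 14.6 to 15.6 CPM).

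Because counts of different genes in 1 library share its depth, 7 ratios within a mouse were also computed, with no test, and not all are described. Bcl2l1 counts per count of Bak1, a pro-survival transcript set against an effector, were 2.02 to 2.34 in WT PBS, 1.03 to 1.36 in WT BLM, 2.59 to 2.77 in KO PBS and 1.496 to 1.75 in KO BLM. None of the 4 groups overlapped another in this ratio, and the KO mice lay above the WT mice under each treatment. KO PBS mouse 136 lay within 2.59 to 2.77 here although it stood apart in both genes. The share of other gene pairs whose groups do not overlap was not computed. Bcl2 counts per count of Bcl2l1 overlapped between all groups. They were 0.183 to 0.238 in WT PBS, 0.195 to 0.348 in WT BLM, 0.160 to 0.344 in KO PBS and 0.158 to 0.249 in KO BLM. Bcl2l1 counts per count of Bcl2l11 were 5.83 to 6.06 in WT PBS, 1.56 to 2.85 in WT BLM, 2.71 to 4.84 in KO PBS and 3.13 to 4.07 in KO BLM. In this ratio the KO mice lay below the WT mice under PBS, the opposite of the ratio to Bak1, and above them under bleomycin. Bcl2 counts per count of Bcl2l11 were 1.11 to 1.39 in WT PBS, 0.503 to 0.557 in WT BLM, 0.774 to 1.36 in KO PBS and 0.530 to 1.002 in KO BLM, so that PBS and BLM mice were apart in WT and overlapped in KO. Mcl1 counts per count of Bcl2l11 were 13.7 to 14.8 in WT PBS and 8.06 to 12.3 in WT BLM, and the KO groups overlapped.

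Other genes of the pathway were read from a list of 34, of which 32 were tested. Bcl2l10 (0 to 8 counts) and Hrk (0 to 5 counts) were too low. In WT skin 10 were higher after bleomycin and 1 lower, which is 34.4% of the list beside 34.0% of all tested genes, with a median log2 fold change of 0.21. In KO skin 0 passed, beside 0.306% of tested genes, although 14 had an unadjusted p under 0.05 in edgeR, beside 20.0%. The median log2 fold change in edgeR was 0.18. DESeq2 called 8, beside 5.95% of the genes it tested. KO against WT gave 0 calls under PBS and 0 under bleomycin, beside 0.0655% and 0.0928% of tested genes. At an unadjusted p under 0.05 there were 5 and 3, beside 20.4% and 16.6% of tested genes. DESeq2 called 0 and 0, beside 3.69% and 2.99% of the genes it tested. The difference of the responses gave 0 calls in edgeR (7 unadjusted, beside 31.1% of tested genes) and 4 by DESeq2, beside 17.8% of the genes it tested.

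**Figure D5:**
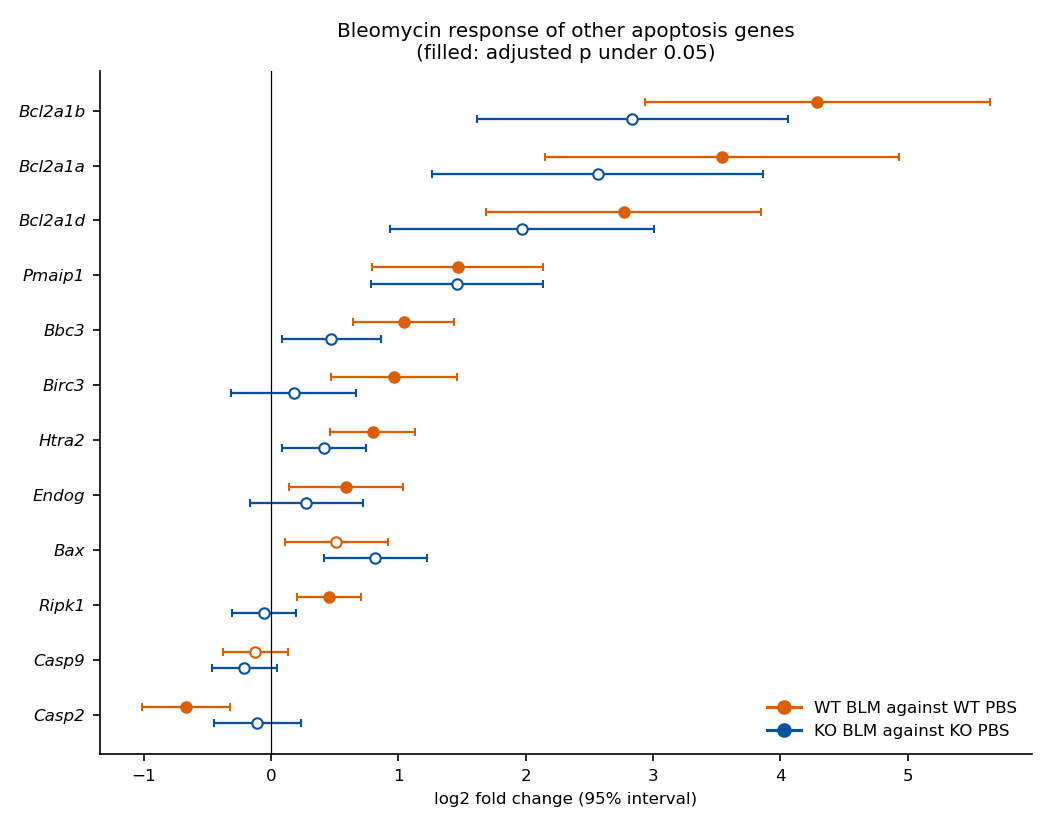
Log2 fold changes with 95% intervals of 12 other apoptosis genes, bleomycin against PBS, in WT (orange) and KO (blue), with filled points where the adjusted p was under 0.05. The Bcl2a1 genes lie farthest to the right in WT (2.77 to 4.29), and Casp2 is the only filled point below 0 (-0.67).

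Among the anti-apoptotic relatives, Bcl2a1a, Bcl2a1b and Bcl2a1d, which encode A1 in blood cells, rose in WT skin by 3.54, 4.29 and 2.77 on the log2 scale. These copies are nearly identical, so the split of reads between them is uncertain. Bcl2a1b was at 0.132 to 0.169 CPM in WT PBS and 2.67 to 3.71 CPM in WT BLM, and in KO at 0.133 to 0.514 CPM and 0.979 to 3.68 CPM (log2 2.84, adjusted p = 0.0585). The leukocyte markers above moved with them. Of the other BH3-only genes, 2 of 5 rose in WT, both known targets of p53: Bbc3, which encodes PUMA, from 6.37 to 7.47 CPM to 13.1 to 15.7 CPM (log2 1.04, adjusted p = 0.00539), and Pmaip1, which encodes NOXA, from 7.34 to 8.39 CPM to 15.2 to 28.1 CPM (log2 1.46, adjusted p = 0.00916). In KO, Pmaip1 had a log2 fold change of 1.46 as well, which did not pass (adjusted p = 0.0738).

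Of the 2 effector genes other than Bak1, edgeR called 0 with all 12 mice. Bax, the partner of Bak1 in function, was at 25.0 to 28.3 CPM in WT PBS and 31.3 to 44.5 CPM in WT BLM and lay just outside the threshold (log2 0.51, adjusted p = 0.0503). It passed there with DESeq2 (adjusted p = 0.0425), upper-quartile normalization (0.0434), a mean of at least 1 CPM (0.0410) or only the groups compared (0.0261). It missed in 9 of 12 fits that left out a mouse (adjusted p up to 0.159). Over all alternatives the adjusted p reached 0.477. In KO, Bax was at 19.8 to 26.4 CPM and 31.2 to 46.1 CPM (log2 0.82, adjusted p = 0.0892), without overlap in either genotype. There it passed with DESeq2 (adjusted p = 0.00423), the growing-hair covariate (0.0335) or without mouse 136 (0.0195) or 141 (0.0205). It missed in the 10 other fits that left out a mouse (adjusted p up to 0.315). Among the other caspases, Casp2 fell (log2 -0.67, adjusted p = 0.0134), from 60.9 to 63.2 CPM in WT PBS to 36.7 to 41.4 CPM in WT BLM. Casp9, the initiator that APAF1 activates, was at log2 -0.12 (adjusted p = 0.418).

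Of 5 apoptosome and mitochondrial release genes, Htra2 (log2 0.80, adjusted p = 0.00689) and Endog (log2 0.59, adjusted p = 0.0458) rose. Htra2 shares 753 exonic bases with Aup1 and 535 with Loxl3, and Endog shares 379 with Spout1, all on the other strand. As with Bid and Bak1, part of the counts of both may belong to those neighbours. Of 4 inhibitors of apoptosis, Birc3, an NF-kB target that restrains death receptor signalling, rose from 17.5 to 19.0 CPM to 33.6 to 38.3 CPM (log2 0.96, adjusted p = 0.0129). Of 4 death receptor adaptors, Ripk1 rose (log2 0.45, adjusted p = 0.0162), and 0 of 3 caspase substrates passed. Ripk1 shares 241 exonic bases with Serpinb6a on the other strand and 511 with Gm17084 on the same strand. Bcl2a1b shares 401 with Gm29094 and Bax 192 with Gm45808, both on the same strand. How reads were split with these neighbours is likewise uncertain. Bcl2a1a, Bcl2a1b, Bcl2a1d, Bbc3, Pmaip1, Htra2 and Casp2 kept their calls in WT skin whichever of the 12 mice was left out. Birc3 and Ripk1 lost theirs without WT PBS mouse 159 (adjusted p = 0.0539 and 0.0763) or 160 (adjusted p = 0.0566 and 0.0768), and Endog in 8 of 12 such fits.

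For the 4 members whose log2 CPM ranged over at least 1, the genes with the most similar profile over the 12 mice were found by the root mean square of the difference in centred log2 CPM. Casp8 lay nearest to Gnai2 (0.077) and Nfu1 (0.090), where the median over the genes searched was 0.51. Apaf1 lay nearest to Asah1 (0.095) and Mdfic (0.10), beside a median of 0.47. Bak1 lay nearest to Tssc4 and Ccsap (both 0.14, median 0.48), and Bcl2l11 to Manba and Sdc2 (both 0.20, median 0.53). Bcl2l11 thus had the least close neighbours of the 4.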

How the data were processed

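RNA was extracted from skin of 12 mice by the authors, who prepared stranded mRNA libraries and sequenced them as read pairs. The deposited file holds raw read counts per gene, without normalization. Aligner, counter and use of strand were not given in the sources used here. The submitters' processing notes name GRCm38.p6 and MultiQC 1.7. Groups came from the sample labels. Genes were kept by filterByExpr (minimum count 10, minimum total count 15), TMM-scaled and fitted in edgeR 4.0.16 (R 4.3.3) by quasi-likelihood with 4 group means, in place of the DESeq2 of the study, which was an alternative (DESeq2 1.42.0). p-values were two-sided and adjusted by Benjamini-Hochberg over the 18311 genes tested, with a threshold of 0.05. Log2 CPM used a prior count of 2. The common biological coefficient of variation was 34.9%, and 17.3% to 23.7% for the 8 genes. Replicates differed by more than counting noise. The steps were tested on simulated data for WT BLM against WT PBS. Of 100 genes changed 2-fold, 24 were called, and of 100 changed 4-fold, 72 were called, with 5 other genes called. Most 2-fold changes were thus missed in the simulation. It changed far fewer of its 18012 genes than the 34.0% that passed in the data. Its shares therefore do not give the recovery to expect for the 8 genes. All 8 members were named, with the pathway genes that passed and, whatever they did, Bax and Casp9. Some genes under this rule are not reported here. Members, lists and alternatives were chosen with earlier results of these data known. Alternatives were RLE and upper-quartile normalization, 2 other filters on low counts, only the groups compared, the growing-hair covariate, mice 136 and 141 left out together and each mouse left out in turn. Sequences are RefSeq, GRCm38.p6. Figures were drawn with matplotlib 3.10.9.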

Additional observations from a re-analysis of the deposited data

How the results depend on the processing

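No paired analysis was possible because every mouse has its own number, which no other mouse shares, so a block could not be formed. Counts below are members, then the 32 tested pathway genes, then all tested genes past the threshold. DESeq2 called 1, 8 and 1202 in KO BLM against KO PBS and 1, 4 and 3253 in the difference of the responses, and 746 and 585 genes in all in KO against WT under PBS and under bleomycin. Without a filter there were 2 members in WT BLM against WT PBS, beside 15.5% of tested genes. There were also 2 pathway genes and 176 genes in all in KO BLM against KO PBS, and 20 genes in the difference of the responses. With upper-quartile normalization 34 genes were called in KO BLM against KO PBS. Fitting only the groups compared called 0 genes in KO BLM against KO PBS, 2 in KO PBS against WT PBS and 6 in KO BLM against WT BLM. With the growing-hair covariate the counts were 0, 0 and 16 in WT BLM against WT PBS and 2, 7 and 1738 in KO BLM against KO PBS. Without mice 136 and 141 together they were 1, 13 and 4164 in KO BLM against KO PBS, 3, 10 and 7648 in KO PBS against WT PBS, and 3, 9 and 7218 in the difference of the responses, with 815 genes in all in KO BLM against WT BLM.

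When each mouse was left out in turn, members called ran from 1 to 7, pathway genes from 7 to 15 and all genes from 2615 to 8565 in WT BLM against WT PBS. In KO BLM against KO PBS they ran from 0 to 1, 0 to 9 and 0 to 2632, in KO PBS against WT PBS from 0 to 2, 0 to 8 and 6 to 6870, and in the difference of the responses from 0 to 4, 0 to 7 and 0 to 7470. All genes ran from 5 to 1292 in KO BLM against WT BLM, where 0 members were called in every alternative. The cause of these shifts was not tested.

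Directions that turned were all of values that had not passed with all 12 mice. Among them, Bak1 and Casp8 in the difference of the responses and Casp8 in KO PBS against WT PBS had passed without mouse 136. With the growing-hair covariate, log2 values in KO PBS against WT PBS became 0.074 for Bcl2l1, -0.040 for Mcl1, -0.10 for Apaf1 and -0.097 for Casp8. In KO BLM against WT BLM they became 0.087 for Mcl1, 0.33 for Bid and 0.046 for Casp8. In the difference of the responses they became 0.17 for Bcl2, 0.13 for Mcl1, 0.32 for Bid, -0.14 for Bak1 and 0.14 for Casp8. Bid in KO BLM against WT BLM became 0.0017 with upper-quartile normalization, 0.011 without a filter and 0.10 without mice 136 and 141. Bcl2l1 in KO BLM against KO PBS became 0.22 without both mice. With single mice left out, KO BLM against KO PBS ran from -0.10 to 0.21 for Bcl2l1, -0.025 to 0.32 for Bcl2l11 and -0.029 to 0.37 for Bid, Apaf1 in KO PBS against WT PBS from -0.064 to 0.21, Bid in KO BLM against WT BLM from -0.17 to 0.18, and Bcl2 in the difference of the responses from -0.17 to 0.15. With 3 mice a group, the width of the intervals limits what KO skin can show.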
